A study of Mus musculus with 13 samples.

Results

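This comparison set Eomes-reporter-positive (GFP+) CD4+ T helper cells from mice treated with a 4-1BB antibody against CD4+ T helper cells, not divided by the reporter, from mice given control IgG. Its members are 5 of the 13 libraries of the series, chosen by their labels: 3 GFP+ libraries and 2 control libraries, called the IgG libraries here. All mice of both groups carried the Eomes-GFP reporter and had been crossed to Foxp3-Thy1.1 mice, in which regulatory T cells carry Thy1.1. All were depleted of NK1.1-bearing cells with 50 µg of antibody on days −2 and 5, and Vk12653 multiple myeloma cells, a transplantable mouse plasma cell tumour, were engrafted on day 0. They then received 20 µg of a 4-1BB agonist antibody or of control IgG on days 10, 13 and 16, and on day 18 splenic T helper cells without Thy1.1 were sorted, gated on CD4 and the T cell receptor. Libraries of GFP− cells (n = 3), whose prefixes show that they came from the same treated animals as the GFP+ libraries, are given beside the main values. The labels give no age, strain background or sex, and do not say otherwise whether replicates were separate animals.

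Treatment, GFP gate and animals all differ between the GFP+ and the IgG libraries, and their parts in any difference cannot be told apart. The IgG cells were not divided, so that group holds GFP+ and GFP− cells in their natural proportions. In bulk RNA, fewer cells of a type and less RNA per cell cannot be told apart either.

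Eomes is a T-box transcription factor related to T-bet (encoded by Tbx21) and is best known from NK cells and CD8+ memory cells, where it drives cytotoxic genes. In CD4+ T cells it marks cells with killing capacity and interleukin-10-producing type 1 regulatory cells. 4-1BB, encoded by Tnfrsf9, is a costimulatory receptor of the tumour necrosis factor family that appears on T cells after antigen contact and signals through TRAF adaptors to NF-kB.

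Of 14059 genes tested, 2642 were higher (18.8% of the genes tested) and 2167 lower (15.4%) in GFP+ than in IgG cells at an adjusted p of 0.05. Of these calls, made against no change, 1463 higher and 1082 lower genes had an estimated difference of more than 2-fold. For 482 and 223 genes the estimate was more than 8-fold. The median log2 fold change over all genes tested was 0.00052. Among the calls 54.9% were higher; with upper-quartile scaling, which shifted the median of all genes to −0.138, 41.9% were higher (2130 higher and 2950 lower). In contrast, GFP− cells of the treated animals differed from the same IgG libraries in 92 higher (0.654%) and 15 lower genes (0.107%), while 1231 genes had an unadjusted p under 0.05. Directly against GFP− cells of the same animals, GFP+ cells had 2905 higher (20.7%) and 2315 lower genes (16.5%). That fit did not pair the fractions by animal. Leaving out 1 library moved some of these counts. The higher genes numbered 1665 without IgG replicate 1 and 1746 without IgG replicate 2, and the 107 calls of GFP− cells against IgG became between 1 and 21 when any 1 of those 5 libraries was left out. The GFP+ and GFP− comparisons with control share the 2 IgG libraries, so their values are set side by side below and no overlap is counted.

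**Figure D1:**
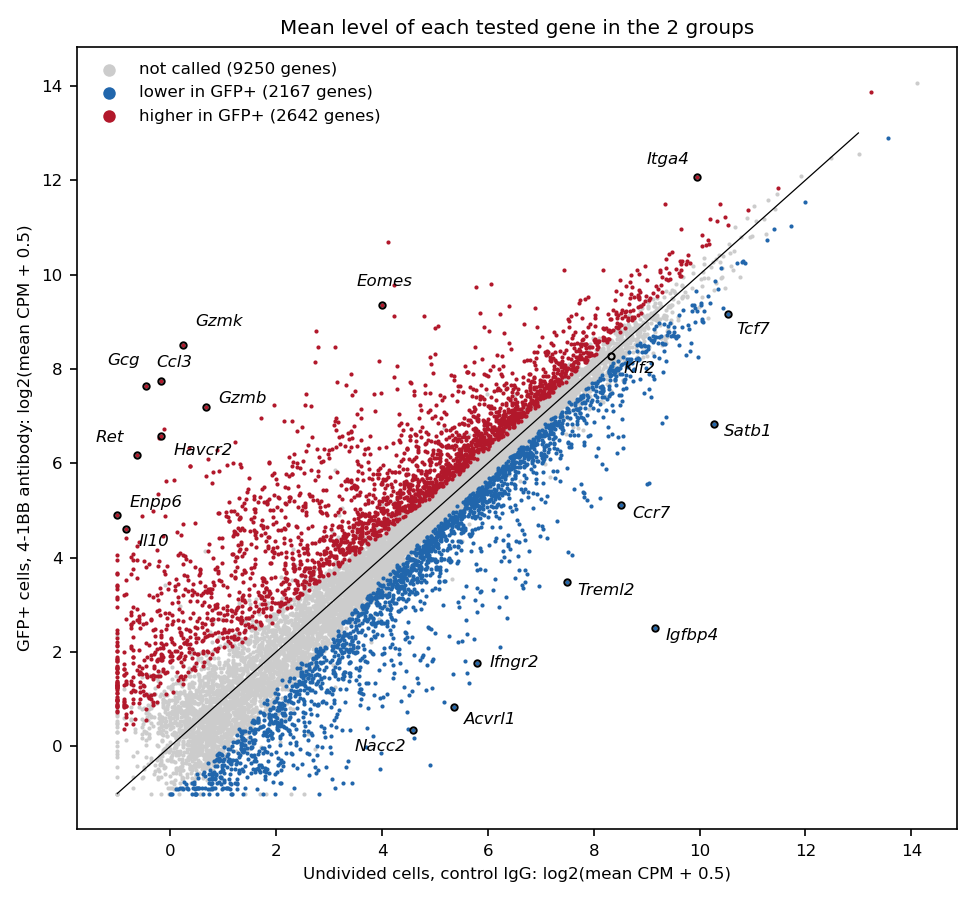
Each point is 1 of the 14059 genes tested, at its mean level in the 2 IgG libraries (x axis) and the 3 GFP+ libraries (y axis), both as log2 of CPM plus 0.5; the line marks equal levels. Red genes were called higher (2642) and blue genes lower (2167) in GFP+ cells. Enpp6, Ccl3, Gzmk and Gcg lie near the bottom of the x range and high on the y axis, and Igfbp4 lies farthest below the line among the labelled genes.

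The labels were first checked. Eomes, whose reporter defined the GFP+ gate, stood at 570.3, 706 and 685 CPM (counts scaled to library size with TMM factors) in the GFP+ libraries, at 14.0 and 16.8 in the IgG libraries and at 3.54, 1.83 and 2.26 in the GFP− libraries. Its difference follows from the sort and is no finding. Foxp3, the master factor of regulatory T cells, lay at 0.554, 0.393 and 0.537 CPM in GFP+ and 0.636 and 1.18 in IgG libraries (log2 fold change −0.87 ± 0.62 SE, adjusted p = 0.312). Cd4 was abundant throughout, at 1102, 1347 and 1151 CPM in GFP+ and 764 and 841 in IgG libraries, and the groups did not overlap. It was called higher (log2 fold change 0.58 ± 0.13, adjusted p = 0.00345), a call lost without IgG replicate 1 (adjusted p = 0.0707). The libraries held 7514385 to 10235363 estimated counts and 17233 to 17934 genes with at least 1 count, and mitochondrial genes took 1.44%, 0.838% and 1.67% of counts in the GFP+ and 1.84% and 2.54% in the IgG libraries, without overlap. GFP+ replicate 2 stood apart from its replicates, at 27 and 29.2 on the chi-square scale of count differences (per degree of freedom), against 8.89 between the other 2.

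Genes that were all but silent in the IgG libraries led the rise. Enpp6, a choline-specific glycerophosphodiesterase, was at 29.1, 31.3 and 27.5 CPM in GFP+ cells, while neither IgG library had a count. Against a floor of 3 counts over the IgG group it was at least 177-fold higher (adjusted p = 1.32e-07). Ccl3, an inflammatory chemokine of activated T cells and macrophages, was at 165, 304 and 125 CPM against 0.254 and 0.196 (log2 fold change 9.71 ± 0.94, adjusted p = 2.77e-05). Gzmk, a serine protease of cytotoxic granules, was at 337, 382 and 368 against 0.763 and 0.587 CPM (9.06 ± 0.56, adjusted p = 3.92e-07). For all 3 genes the GFP+ libraries lay far above both IgG libraries, and the GFP+ libraries lay close together for Enpp6 and Gzmk but spread over more than 2-fold for Ccl3. In GFP− cells Enpp6 (0, 0 and 0.0903 CPM), Ccl3 (0.366, 0.609 and 0.632) and Gzmk (1.83, 1.10 and 1.26) stayed near the control level, without a call.

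Several of the steepest rises belonged to genes better known outside the immune system. Gcg encodes the precursor of glucagon and glucagon-like peptides. It was at 198, 312 and 128 CPM in GFP+ libraries against 0 and 0.783 in IgG libraries (log2 fold change 8.87 ± 1.05, adjusted p = 0.000157). The same libraries held transcripts of Glp1r, the glucagon-like peptide 1 receptor, at 10.3, 9.82 and 20.3 against 0.254 and 0.196 CPM (5.84 ± 0.75). Whether the same cells carried both transcripts was not tested. Both genes were low in GFP− cells, at 0.244, 0.487 and 0.361 and 0.244, 0.122 and 0.903 CPM. Ret, a receptor tyrosine kinase of developing neurons, was at 60.4, 83.7 and 71.5 CPM against 0 and 0.294 (8.65 ± 0.46, adjusted p = 6.04e-09). Dpysl5, a neuronal growth-cone protein (6.98 ± 0.69), and Kcnip3, a calcium sensor that binds potassium channels and DNA (6.90 ± 0.64), were called higher too. So were Gas7, a cytoskeletal adaptor (8.04 ± 0.50), Wipf3, a partner of actin-nucleating proteins (7.32 ± 0.88), the secreted kinase Pkdcc (7.03 ± 0.89) and the survival-linked early response gene Ier3 (6.85 ± 0.59). Esm1, a secreted proteoglycan of endothelial cells, was at 35.5, 24.5 and 33.1 against 0.509 and 0.0979 CPM. No IgG library reached the lowest GFP+ library for any of these genes, but the rule that named all of them except Glp1r and Esm1 required this.

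**Figure D2:**
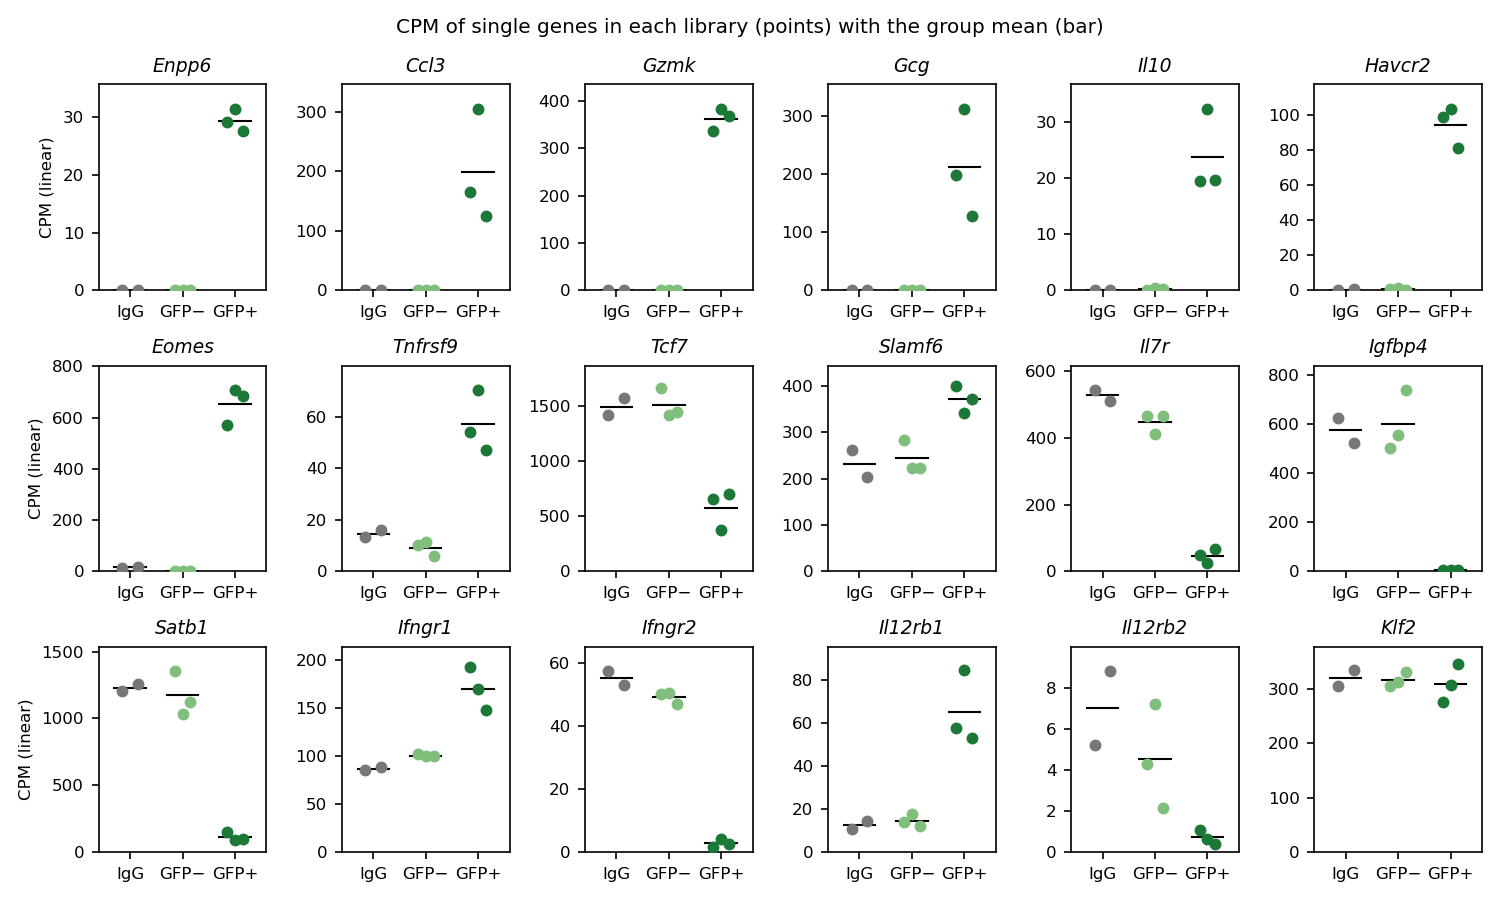
Each panel shows the CPM of 1 gene (y axis, linear, from 0) in every IgG, GFP− and GFP+ library (points; 2, 3 and 3 libraries) with the group mean as a bar. The GFP− points lie near the IgG points in most panels. Enpp6, Ccl3, Gzmk, Gcg, Il10 and Havcr2 are high in the GFP+ libraries only among these 3 groups, Igfbp4 and Satb1 are low in them, and Klf2 is at a similar level in all 8 libraries.

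Genes of the cytotoxic granule were higher almost throughout. Of 21 listed genes 20 passed the filter on low counts, and 17 of these were called higher and 1 lower (median log2 fold change 2.41, against 0.00052 for all genes tested). In GFP− cells none of the 20 was called against IgG (median 0.085), in a comparison that called 0.654% of all genes tested higher and 0.107% lower. Gzmb, the main granzyme of killer cells, was at 190.4, 139 and 107 CPM in GFP+ libraries and 0.636 and 1.57 in IgG libraries (6.96 ± 0.59, adjusted p = 4.89e-06). Nkg7, a granule membrane protein needed for degranulation, was at 739.9, 1203 and 703 against 14.1 and 22.1 CPM (5.59 ± 0.57). These genes were barely detected or low in the IgG cells, whereas the pore-forming protein gene Prf1 was already present there, at 40.3 and 40.6 CPM, and reached 220.2, 223 and 207 CPM in GFP+ cells (2.42 ± 0.17, adjusted p = 9.85e-08). Slamf7, a SLAM receptor of cytotoxic cells, was at 182, 174 and 182 against 11.1 and 19.7 CPM, and Stx11, a syntaxin needed for granule release, at 66.5, 101 and 66.3 against 8.14 and 7.54. Crtam, an adhesion receptor of killer CD4+ cells, rose by 2.54 ± 0.20 on the log2 scale. Gzma was at 9.15, 7.33 and 6.66 against 1.27 and 2.64 CPM without a call (adjusted p = 0.0865), and neither was Gzmm called (adjusted p = 0.104). Gzma was called higher with no filter on low counts (0.000245), DESeq2 (0.0344) and the pair of groups alone (0.00572), and Gzmm without GFP+ replicate 2 (0.0251). Lamp1, a lysosomal membrane protein, was the 1 lower member, at 61.4, 84.5 and 75.9 against 108 and 102 CPM (−0.50 ± 0.14, adjusted p = 0.00995), a call lost without IgG replicate 1.

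Among 26 chemokine and cytokine genes, 19 passed the filter, of which 8 were higher and 5 lower. The higher genes were chemokines and effector or regulatory cytokines. Ccl5, a chemokine stored in effector cells, was at 1855, 1589 and 1475 CPM in GFP+ against 8.39 and 25.4 in IgG libraries (6.58 ± 0.82, adjusted p = 0.000282). Ccl4, a close relative of Ccl3, was at 88.4, 153 and 76.3 against 0.254 and 0.587 CPM. Il10, which encodes the suppressive cytokine interleukin-10, was at 19.5, 32.3 and 19.8 against 0.127 and 0 CPM (8.41 ± 0.86, adjusted p = 3.76e-06). Ifng, the signature Th1 cytokine, was at 94.4, 142 and 96.9 against 7.76 and 8.42 CPM (3.78 ± 0.29), without overlap between the groups. The lower genes were all ligands of the tumour necrosis factor family. Cd40lg, through which helper cells license B cells and dendritic cells, was at 12.2, 11.4 and 9.78 against 69.8 and 69.3 CPM (−2.65 ± 0.15, adjusted p = 1.3e-08). Tnf (−1.09 ± 0.18), Lta (−2.06 ± 0.24), Ltb (−0.85 ± 0.15) and Tnfsf8, the CD30 ligand (−2.31 ± 0.16), were lower as well. These 5 were the whole set of lower members, whereas Fasl and Tnfsf10, death ligands of the same family counted with the granule genes, were higher. Il2 was at or below 1.08 CPM in all but 1 of the 5 libraries and was not called, and Il21, a follicular helper cytokine, was at 18.3, 39.9 and 14.8 against 13.7 and 7.05 CPM (adjusted p = 0.264). Il21 was called higher with no filter on low counts (adjusted p = 6.49e-05). Spp1, which encodes osteopontin, was called higher (14.0, 6.28 and 3.87 against 0.509 and 0.196 CPM), a call lost without IgG replicate 2.

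Inhibitory receptors and ectoenzymes were higher in 12 and lower in 2 of 21 listed genes, all of which passed the filter (median 1.34). Havcr2, which encodes TIM-3, was at 99.1, 103 and 81.3 CPM in the GFP+ libraries against 0 and 0.783 in the IgG libraries (7.71 ± 0.74, adjusted p = 1.08e-05). Pdcd1, which encodes PD-1, was at 209.7, 362 and 224 against 20.5 and 17.5 CPM (3.80 ± 0.32), Lag3 at 152, 269 and 179.5 against 11.9 and 6.95 and Tigit at 147, 232 and 153 against 7.38 and 3.43. For each of these 4 receptors the lowest GFP+ library lay at least several-fold above the higher IgG library. The enzymes of extracellular adenosine moved apart. Entpd1, which encodes CD39 and removes phosphates from ATP, was at 141, 173 and 137 against 5.34 and 5.29 CPM (4.82 ± 0.27, adjusted p = 1.16e-08). Cd38, an NAD hydrolase, was at 86.6, 149 and 92.4 against 5.60 and 4.70 CPM (4.41 ± 0.38). Nt5e, which encodes CD73 and forms adenosine from AMP, was lower, at 18.6, 17.1 and 26.4 against 82.2 and 58.6 CPM (−1.75 ± 0.20, adjusted p = 8.26e-06). Btla was the other lower member (−0.61 ± 0.17, adjusted p = 0.0124), a call lost without IgG replicate 1, and Vsir, which encodes VISTA, was at 351, 377 and 392 against 393 and 371 CPM (adjusted p = 0.821).

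Costimulatory receptors were higher in 10 and lower in 4 of 17 genes tested. Tnfrsf9 itself, the target of the antibody, was at 54.2, 70.6 and 47.2 CPM in GFP+ libraries and at 13.3 and 16.1 in IgG libraries (1.96 ± 0.29, adjusted p = 0.000105). GFP− cells of the treated animals were not called, at 10.4, 11.3 and 6.14 CPM. Tnfrsf4, which encodes OX40 (2.17 ± 0.40), Tnfrsf1b, the type 2 tumour necrosis factor receptor (2.12 ± 0.21), Icos (0.95 ± 0.17), Tnfrsf18, which encodes GITR (0.97 ± 0.16), and Cd28 (0.63 ± 0.12) were also higher. Cd226, the activating partner that competes with Tigit for shared ligands, was lower, at 26.6, 16.4 and 23.9 against 95.1 and 110.1 CPM (−2.20 ± 0.18, adjusted p = 3.71e-07). Tnfrsf25, the death receptor 3 gene, was lower too (−1.498 ± 0.21). The 4 lower members became 2 without IgG replicate 2. Downstream of these receptors, 25 genes of the 4-1BB adaptors and the NF-kB pathway held 5 higher and 4 lower members, close to the 18.8% and 15.4% of all genes tested. Their fold changes were small: Tnfaip3, a feedback inhibitor of NF-kB, was at 906, 812 and 823 against 499 and 345 CPM (1.005 ± 0.20), and the adaptor Traf1 at 274, 286 and 257 against 188 and 151 (0.69 ± 0.16). Map3k14, the kinase of the alternative pathway (−0.43 ± 0.09), Birc3 (−0.45 ± 0.10) and Ikbke (−0.76 ± 0.12) were lower. In GFP− cells 3 of the 25 were higher than in IgG cells, against 0.654% of all genes tested. Among them was Tnfaip3 at 1455, 1201 and 1328 CPM (1.65 ± 0.21, adjusted p = 0.00372), above its level in GFP+ cells (−0.65 ± 0.17, adjusted p = 0.00967). The 5 higher NF-kB members became 3 without IgG replicate 1, 1 without IgG replicate 2, 2 without GFP+ replicate 2 and 2 with upper-quartile scaling.

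Transcription factors of effector and exhausted T cells were higher in 23 and lower in 4 of the 31 that passed the filter out of 32 listed (median 1.65). Nr4a2, an orphan nuclear receptor induced by T cell receptor signals, was at 124, 165 and 157 CPM in GFP+ against 5.98 and 5.58 in IgG libraries (4.68 ± 0.20, adjusted p = 6.38e-10). Its relatives did not follow: Nr4a1 was lower (−0.35 ± 0.11, adjusted p = 0.0299, lost without either IgG library) and Nr4a3 was at 46.1, 48.0 and 48.7 against 51.6 and 52.0 CPM without a call. Bhlhe40, a factor of cytokine-producing effector cells, was at 504, 673.3 and 480.5 against 24.4 and 30.2 CPM, and Prdm1, which encodes Blimp-1, at 128, 180.4 and 119 against 10.9 and 12.4 (3.60 ± 0.22). Runx2 (3.67 ± 0.36), Ikzf2, which encodes Helios (2.94 ± 0.28), Maf (2.46 ± 0.32), Tox, a factor of exhausted cells (2.42 ± 0.12), and Runx3, a driver of the cytotoxic lineage (1.96 ± 0.14), were higher, and their libraries did not overlap between groups. Myb, a factor of progenitor cells, was at 200.5, 155 and 216 against 69.7 and 76.1 CPM (1.39 ± 0.14). Tbx21, the relative of Eomes, was at 40.9, 17.3 and 27.7 against 12.1 and 21.5 CPM, values that overlap (log2 fold change 0.76 with a 95% interval from −0.04 to 1.56, adjusted p = 0.137). Tbx21 was called higher with no filter on low counts (adjusted p = 0.00547) and without GFP+ replicate 2 (0.0409). The lower members included Nr4a1, Gata3 (−0.41 ± 0.13) and the Notch partner Rbpj (−0.54 ± 0.11). The 4 lower members became 2 when either IgG library was left out, and the call of Rbpj held in both cases while that of Gata3 was lost.

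Genes of naive and quiescent T cells held 16 lower and no higher member among 23 tested (median −1.37). In GFP− cells none was called against IgG and the median was −0.07, with 0.654% of all genes tested called higher and 0.107% lower there. Igfbp4, an insulin-like growth factor binding protein of naive CD4+ cells, fell from 625 and 522 CPM in the IgG libraries to 4.30, 5.37 and 5.91 in the GFP+ libraries (−6.77 ± 0.19, adjusted p = 2.09e-11). Ccr7, which takes T cells into lymph nodes, was at 33.8, 35.4 and 33.2 against 385 and 350.4 CPM (−3.43 ± 0.11), and the chromatin organizer Satb1 at 151, 93.0 and 98.5 against 1203 and 1257 (−3.43 ± 0.20). No GFP+ library came near either IgG library for these 3 genes. Il7r, the interleukin-7 receptor, was at 50.7, 25.1 and 66.9 against 544 and 512 CPM (−3.47 ± 0.29, adjusted p = 3.66e-06). Lef1 (−1.44 ± 0.16), Foxp1 (−1.36 ± 0.13), Bach2 (−1.91 ± 0.17) and Foxo1 (−1.002 ± 0.10), factors that hold T cells in quiescence, were lower. Klf2, a factor of quiescence and egress controlled by Foxo1, was at 276, 306 and 345 against 305 and 334 CPM (−0.05 ± 0.12, 95% interval −0.31 to 0.22, adjusted p = 0.801).

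The 18 genes of progenitor-like T cells, the population named in the title of the series, split evenly into 8 higher and 8 lower. Tcf7, which encodes TCF1 and defines that state, was at 655, 379 and 696 CPM in GFP+ against 1412 and 1566 in IgG libraries (−1.37 ± 0.22, adjusted p = 0.000292); the GFP+ libraries were below both IgG libraries , the lowest of them GFP+ replicate 2. Slamf6, a surface marker of the same state, was higher, at 399.6, 341 and 372 against 261 and 203 CPM (0.68 ± 0.16, adjusted p = 0.00489), a call lost without IgG replicate 2 (adjusted p = 0.0898). Cxcr5, the receptor that leads cells to B cell follicles, was at 282, 358 and 279 against 35.6 and 23.4 CPM (3.38 ± 0.34). Xcl1, a chemokine for cross-presenting dendritic cells, was at 5.68, 7.86 and 7.09 against 0.382 and 2.06 CPM, a call lost without IgG replicate 1. Myb, Cxcr3, Cd28, Icos and Cd27 (lost without either IgG library, without GFP+ replicate 2 or 3 and with upper-quartile scaling) were the other higher members, and Il7r, Ccr7, Lef1, Bach2, Ltb and Tnfsf8 joined Tcf7 among the lower ones. Most of these genes stand in other lists above as well.

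The list of type 1 regulatory cells, CD4+ cells that make interleukin-10 without Foxp3, had 11 higher and 1 lower member of 14. Besides Il10, its higher members included Havcr2, Lag3, Tigit, Prdm1 and Maf, whose values stand above, and Egr2 (0.89 ± 0.28, adjusted p = 0.0246, lost without either IgG library). Cd226, a surface marker of human type 1 regulatory cells, was the lower one. Among 14 follicular helper genes that passed, 5 were higher and 5 lower (3 lower without IgG replicate 1): with Cxcr5 and Pdcd1 stood Sh2d1a, the adaptor SAP (1.92 ± 0.15), while Bcl6, the master factor of follicular helper cells, was at 38.8, 36.8 and 44.6 against 46.5 and 51.9 CPM (adjusted p = 0.255). Ascl2, an early inducer of Cxcr5, had no count in any GFP+ library against 1.40 and 0.392 CPM in IgG libraries, at least 7.21-fold lower (adjusted p = 0.0228, lost without IgG replicate 1).

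Cytokine receptors held 8 higher and 12 lower members among 27, and chains that pair in 1 receptor often differed in direction. Ifngr1, the ligand-binding chain for interferon-gamma, was at 193, 169.8 and 149 CPM in GFP+ and 85.3 and 88.5 in IgG libraries (0.97 ± 0.13, adjusted p = 5.21e-05). Its signalling partner Ifngr2 was at 1.66, 4.32 and 2.79 against 57.4 and 53.1 CPM (−4.23 ± 0.22, adjusted p = 4.22e-09), and GFP− cells kept it at 50.0, 50.6 and 46.9. For interleukin-12, Il12rb1 was at 57.6, 84.6 and 53.1 against 11.1 and 14.7 CPM (2.33 ± 0.27) and Il12rb2, the signalling chain, at 1.11, 0.655 and 0.430 against 5.21 and 8.81 (−3.28 ± 0.53). The interleukin-18 receptor showed Il18r1 lower (25.4, 16.4 and 23.2 against 84.1 and 82.6 CPM, −1.94 ± 0.15) and Il18rap higher (76.4, 38.6 and 61.0 against 15.3 and 28.2 CPM, 1.42 ± 0.38), the latter a call lost without IgG replicate 1. For interleukin-2 and interleukin-15, the shared chain Il2rb was at 945, 1396 and 933 against 165 and 183 CPM (2.65 ± 0.26), the common gamma chain Il2rg was not called (552, 564 and 489 against 576 and 645), and the high-affinity chain Il2ra was lower (−2.04 ± 0.38). Both chains of the interleukin-10 receptor were higher, Il10ra at 451, 486 and 452 against 27.2 and 35.5 CPM (3.88 ± 0.21, adjusted p = 1.04e-08) and Il10rb by 0.72 ± 0.12. Both chains of the interleukin-6 receptor were lower, Il6ra at 47.1, 37.6 and 55.3 against 534 and 490.4 CPM (−3.45 ± 0.14) and Il6st, which encodes gp130, with a log2 fold change of −1.69 ± 0.12. Il9r (−5.18 ± 0.50) and Il4ra (−1.72 ± 0.11) were lower too.

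Receptors for homing and egress were higher in 10 and lower in 6 of the 20 that passed. Receptors for inflammatory chemokines were on the higher side: Cx3cr1, of patrolling effector cells, was at 118, 124 and 113 CPM in GFP+ against 1.27 and 7.64 in IgG libraries (4.66 ± 0.51), Cxcr3 at 176, 206 and 175 against 41.3 and 44.8 (2.11 ± 0.37) and Cxcr6 at 67.9, 99.9 and 86.8 against 25.9 and 41.8 (1.32 ± 0.33, a call lost without IgG replicate 1). Cxcr5, given above, was higher as well. Lower members included Ccr7, S1pr1, the exit receptor (401, 448 and 411 against 658 and 676 CPM, −0.67 ± 0.11), and Ccr9 (2.50, 0.916 and 3.22 against 16.3 and 19.8 CPM, −2.998 ± 0.38). Without IgG replicate 1 the higher members numbered 6.

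Integrins and adhesion receptors, 21 tested, were higher in 11 and lower in 7. Itga4, a chain of VLA-4, was higher, at 4621, 3948 and 4322 CPM in GFP+ libraries against 1049 and 925 in IgG libraries (2.12 ± 0.13, adjusted p = 2.28e-08). Its partner Itgb7, which forms the gut-homing receptor with it, was lower, at 281, 413 and 335 against 492 and 552 CPM (−0.61 ± 0.16, lost without IgG replicate 2). Itgal and Itgb2, the chains of LFA-1, were higher together, by 1.31 ± 0.15 and 1.16 ± 0.15. Adgrg1, an adhesion receptor of cytotoxic lymphocytes also called GPR56, was at 31.9, 66.2 and 48.1 against 0.509 and 0.392 CPM (6.74 ± 0.49). The residency and collagen chains Itgae (0.416, 0.262 and 0.752 against 1.65 and 2.84 CPM) and Itga1 (0.277, 0.524 and 0.215 against 3.69 and 3.52) were low in all 5 libraries and lower in GFP+ cells, the former a call lost without IgG replicate 2. Itgb3 was at 47.3, 38.9 and 36.6 against 203 and 249 CPM (−2.47 ± 0.13). Of 21 killer lectin-like receptors 8 passed the filter, 3 of them higher and 2 lower (1 higher without IgG replicate 1, and 5 higher with no filter on low counts). Klrg1, a receptor of terminal effector cells, was at 69.6, 68.9 and 45.5 against 0.127 and 1.47 CPM (6.12 ± 0.69, adjusted p = 2.96e-05). Klrk1, which encodes NKG2D, was lower, at 1.52, 2.23 and 3.12 against 4.07 and 9.98 CPM (adjusted p = 0.0149, lost without IgG replicate 2).

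Cell division genes were the most uniform group. All 33 mitosis and spindle genes passed the filter and were called higher in GFP+ than in IgG cells (median log2 fold change 3.62). Cdk1, the mitotic kinase, was at 28.0, 42.8 and 20.6 CPM in GFP+ against 1.15 and 1.66 in IgG libraries (4.40 ± 0.43, adjusted p = 2.11e-06), and Ccnb1, its cyclin, at 29.5, 52.8 and 24.2 against 1.15 and 2.15 (4.38 ± 0.46). Mki67, the proliferation marker Ki-67, was at 728, 501 and 522 against 32.0 and 81.9 CPM, with a wider gap between the IgG libraries than for the other genes (3.35 ± 0.57, adjusted p = 0.00165). Top2a was at 325, 365 and 265 against 28.0 and 34.8 CPM. Of 30 DNA replication genes 28 were higher and none lower (median 1.65), among them Rrm2, a ribonucleotide reductase subunit (94.2, 124 and 64.6 against 8.39 and 9.50 CPM), and Tk1, a thymidine kinase (25.9, 39.1 and 20.9 against 1.53 and 2.45). The 2 not called were Rfc4 (0.84 ± 0.36, adjusted p = 0.0893) and Ung (−0.36 ± 0.20, adjusted p = 0.186). Rfc4 was called higher with the replicate block (adjusted p = 0.0472). Cdkn1a, which encodes the cell cycle inhibitor p21, was higher as well, at 10.3, 29.98 and 7.84 against 0.636 and 0.587 CPM (4.68 ± 0.71).

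The median of each list was intermediate in the GFP− cells of the treated animals, but few replication genes were called there: 1 of 30 was higher in GFP− than in IgG cells (median 0.62), and 24 were higher and 1 lower in GFP+ than in GFP− cells. Of the 33 mitosis genes 18 were called higher in GFP− than in IgG cells (median 1.90), and 31 were called higher in GFP+ than in GFP− cells (median 1.63). Over all genes tested, 0.654% were called higher in GFP− than in IgG cells. In GFP+ against GFP− cells 20.7% of all genes tested were called higher and 16.5% lower. Plk1, a kinase of mitotic entry, was at 3.05 and 4.01 CPM in IgG, 14.0, 15.6 and 12.1 in GFP− and 49.8, 57.3 and 32.6 in GFP+ libraries, 3 ranges without overlap. Ccna2, cyclin A2, was at 4.32 and 7.54, then 27.9, 30.9 and 23.3, then 96.6, 122 and 62.0 CPM. Its GFP− cells exceeded IgG cells by 2.18 ± 0.40 (adjusted p = 0.031), and GFP+ exceeded GFP− cells by 1.77 ± 0.30 (adjusted p = 0.000688). This was the 1 listed programme with over 10 members called in GFP− cells against control. Without IgG replicate 2, 1 gene of all those tested was called in GFP− cells against control, and without any other single library of that comparison 14 to 21 genes were, so the GFP− calls here and among the immediate early genes rest on all 5 libraries.

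**Figure D3:**
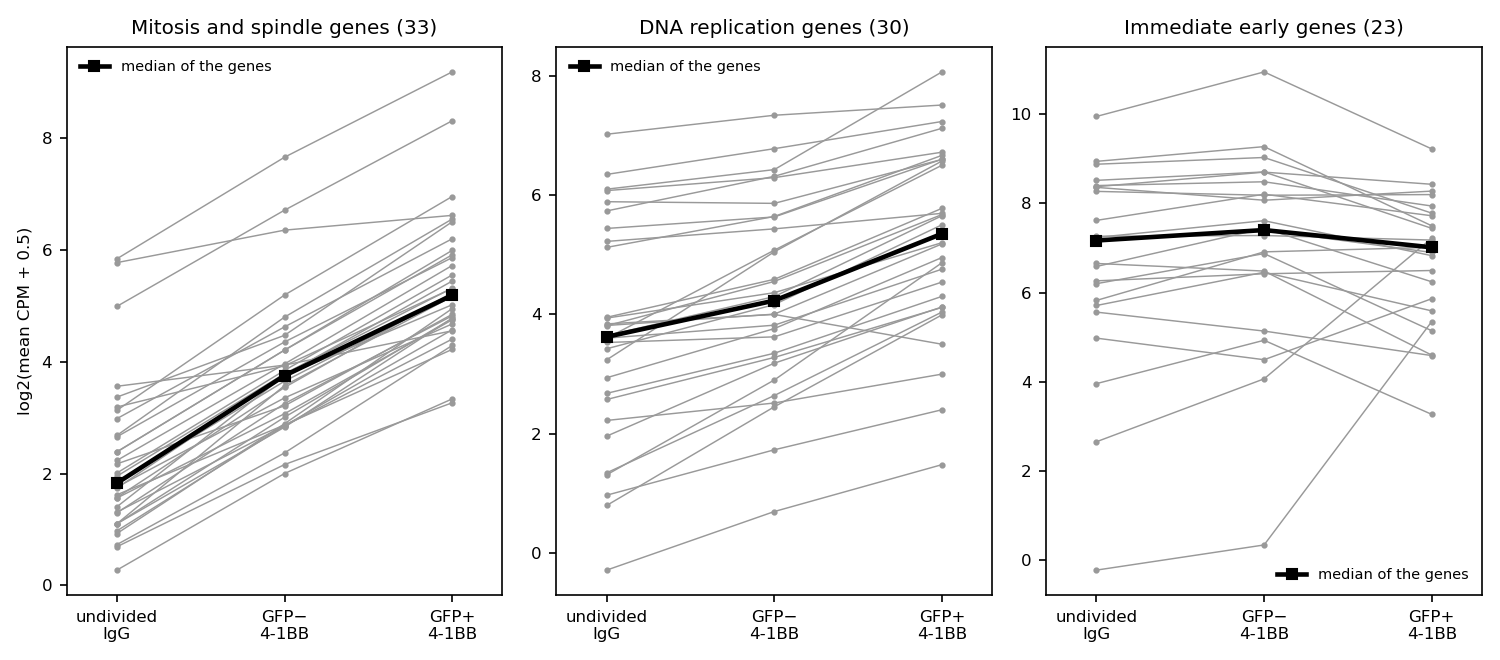
Each grey line is 1 gene, drawn through its mean level (y axis, log2 of CPM plus 0.5) in IgG, GFP− and GFP+ libraries; the black line joins the medians of the genes. The medians of the 33 mitosis and 30 replication genes climb from IgG over GFP− to GFP+, though single replication genes such as Ung do not, while many of the 23 immediate early genes are highest in GFP− cells.

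Short promoter sequences were read for the cell division and granule genes because these lists moved nearly as blocks. RefSeq windows of the mouse build GRCm38.p6, from 250 bases before to 50 bases after each annotated start, matched 9428 of the genes tested by symbol. The 6 letters TTTGAA, the core of the cell cycle homology region bound by repressors of mitotic genes in resting cells, occurred on either strand in the promoters of 23 of 29 mitosis genes (79.3%), against 14.9% of all genes tested with a window and 17.9% of all 32851 windows. Of these, 3 are shown, with the match in capitals, in the order Plk1 (chr7:122159425-122159484), Bub1b (chr2:118598211-118598260) and Aspm (chr1:139454739-139454822), all on the plus strand.
Plk1: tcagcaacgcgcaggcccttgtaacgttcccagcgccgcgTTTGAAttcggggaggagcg
Bub1b: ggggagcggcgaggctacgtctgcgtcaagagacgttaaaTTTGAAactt
Aspm: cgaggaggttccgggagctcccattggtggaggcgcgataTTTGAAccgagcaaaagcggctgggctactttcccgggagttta
In these 3 the match starts 30, 40 and 6 bases after the annotated start. Bub1b, a spindle checkpoint kinase, was at 38.0, 49.4 and 31.1 CPM in GFP+ against 2.54 and 4.21 in IgG libraries, and Aspm, a spindle pole protein, at 84.7, 77.2 and 57.6 against 6.61 and 8.22. The E2F-type letters GCGGGAA occurred in those of 12 of 25 replication genes (48%), against 9.93% of all genes tested and 4.6% of all windows. Hells (chr19:38930889-38930975, plus strand), a chromatin remodeller (54.6, 50.5 and 44.2 against 11.3 and 12.7 CPM), and Rrm1 (chr7:102441588-102441674, plus strand), a ribonucleotide reductase subunit (146, 149 and 119.6 against 55.3 and 50.0), carry it on the other strand, shown in capitals as read here.
Hells: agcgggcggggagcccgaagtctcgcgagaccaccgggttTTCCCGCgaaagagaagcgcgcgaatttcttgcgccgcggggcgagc
Rrm1: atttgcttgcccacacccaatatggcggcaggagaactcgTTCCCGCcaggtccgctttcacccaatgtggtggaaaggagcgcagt
The T-box letters TCACACCT, the site type that Eomes and T-bet bind, were rare: they occurred in the promoters of 2 of 17 granule genes (11.8%), those of Nkg7 and Rab27a, against 1.08% of all genes tested and 1.28% of all windows. Among genes called higher 1.4% and among genes called lower 1.02% held them, and none of the 13 windows found for 11 of the 15 largest rises did. Nkg7 (chr7:43437084-43437171, plus strand) carries them on the other strand.
Nkg7: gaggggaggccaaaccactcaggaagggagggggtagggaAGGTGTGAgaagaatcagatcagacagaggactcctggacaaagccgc
A match describes letters in a window and is not evidence of binding. None of the 3 motifs contains another.

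Immediate early genes, which are induced within minutes of a stimulus, ran the other way in part. Of 23 tested, 4 were higher and 11 lower in GFP+ than in IgG cells, where 18.8% and 15.4% of all genes tested were called. In GFP− cells 7 were higher than in IgG cells and none lower, against 0.654% and 0.107% of all genes tested. Junb, a subunit of AP-1, was at 999 and 982 CPM in IgG, 2041, 1995 and 1906 in GFP− and 604, 543 and 646 in GFP+ libraries, so that the GFP− libraries were highest and the GFP+ libraries lowest. Against IgG it differed by −0.73 ± 0.18 in GFP+ cells (adjusted p = 0.00577) and by 1.000 ± 0.19 in GFP− cells (adjusted p = 0.0282). Sik1, a salt-inducible kinase, followed the same order, at 158 and 117, then 334, 265 and 288, then 75.7, 72.0 and 64.4 CPM. Fos (−1.08 ± 0.15), Jun (−1.45 ± 0.19) and Myc (−2.08 ± 0.24, 21.8, 23.2 and 26.1 against 87.9 and 112 CPM) were lower in GFP+ cells, and none of these 3 was called in GFP− cells. The higher members were Ier3, Nr4a2, Egr2 and Dusp5, a phosphatase of ERK kinases. Dusp5 was similar in both treated fractions, at 129.9, 136 and 121 CPM in GFP+, 143, 97.8 and 119 in GFP− and 57.6 and 54.6 in IgG libraries. Rgs1, a brake on chemokine receptors, was higher in both too (2.62 ± 0.15 and 1.32 ± 0.14), as was Odc1, the first enzyme of polyamine synthesis (1.39 ± 0.20 and 1.35 ± 0.20).

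The T cell receptor complex and its proximal signalling genes were moderately higher in 15 and lower in 3 of 26 (median 0.45). Fyn, a Src-family kinase, was at 856, 1009 and 967 CPM against 339 and 386 (1.38 ± 0.12, adjusted p = 5.63e-07), and the inhibitory genes Ptpn22 (1.497 ± 0.12), Ubash3b (1.496 ± 0.13) and Sla (1.55 ± 0.11) were higher by similar amounts. Ptpn6, which encodes the phosphatase SHP-1, was lower, at 101, 79.3 and 111 against 196 and 222 CPM (−1.11 ± 0.21, adjusted p = 0.00136). The 15 higher members became 9 when either IgG library was left out.

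Survival and death genes were higher in 12 and lower in 3 of 23 tested. Pmaip1, which encodes the death-promoting protein Noxa, was at 62.6, 74.2 and 53.1 CPM against 3.94 and 2.35 (4.35 ± 0.35, adjusted p = 3.92e-07), and the inflammatory caspase gene Casp1 (87.5, 79.5 and 76.7 against 10.7 and 9.69 CPM) was higher. On the survival side, Bcl2 was at 176, 159.5 and 179 against 344 and 282 CPM (−0.87 ± 0.14) and the Bcl2 relative Bcl2a1d at 28.4, 31.4 and 25.8 against 3.69 and 3.04 (3.09 ± 0.26; a gene with near-identical copies, so uncertain). Bcl2l11, which encodes Bim, was not called (0.27 ± 0.14, adjusted p = 0.148).

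Interferon-stimulated genes had no common direction: 11 of 39 were higher and 6 lower (median 0.04), and the lower share was the 15.4% of all genes tested. Mx1 (25.8, 24.7 and 16.6 against 5.34 and 4.80 CPM, 2.14 ± 0.35) and the guanylate-binding protein gene Gbp3 (2.04 ± 0.34) were higher. Oas2, an RNA sensor, was at 10.5, 4.84 and 6.23 against 42.4 and 44.6 CPM (−2.60 ± 0.22, adjusted p = 5.84e-07), and Igtp, an interferon-gamma-induced GTPase, at 78.2, 100.5 and 79.1 against 186 and 181 (−1.09 ± 0.20). Leaving out IgG replicate 1 reduced the higher members to 5, and leaving out IgG replicate 2 left 6 higher and 2 lower.

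Metabolic and ribosomal protein genes were read in 4 lists. Of 20 glycolysis genes 10 were higher and 1 lower (median 0.50); Gapdh was at 1039, 1465 and 952 against 465 and 536 CPM (1.20 ± 0.21) and Hk2, a hexokinase, at 9.84, 9.43 and 6.88 against 1.27 and 2.06 (2.36 ± 0.34). The higher members numbered 6 without IgG replicate 1 and 4 without IgG replicate 2. The lower gene was Pdk1, a kinase that keeps pyruvate out of mitochondria, at 64.2, 54.9 and 56.3 against 293 and 307 CPM (−2.36 ± 0.12, adjusted p = 3.8e-09). Cholesterol synthesis and uptake genes were lower in 11 and higher in 1 of 22 (6 lower without IgG replicate 2). Srebf2, the transcription factor that drives the sterol pathway, was at 166, 263 and 171 against 337 and 344 CPM (−0.77 ± 0.17, adjusted p = 0.00228). Only 6 of 78 nuclear-encoded respiratory chain genes were called, 4 higher and 2 lower, a share under that of all genes tested. The 4 higher became 10 with the replicate block, 7 with no filter and 0 without IgG replicate 1, and the 2 lower became 0 without either IgG library. Cytosolic ribosomal protein genes were lower in 30 and higher in 1 of the 86 that passed (median −0.62). In GFP+ against GFP− cells 51 of the 86 were lower, where 16.5% of all genes tested were. Rpl5 was at 509.9, 551 and 532 against 1023 and 1085 CPM (−0.99 ± 0.15), and Rps19 at 239, 229 and 246 against 518 and 544 (−1.16 ± 0.19). The count of 30 moved to 47 with the pair of groups fitted alone, to 75 with no filter on low counts and to 17 without IgG replicate 2.

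**Figure D4:**
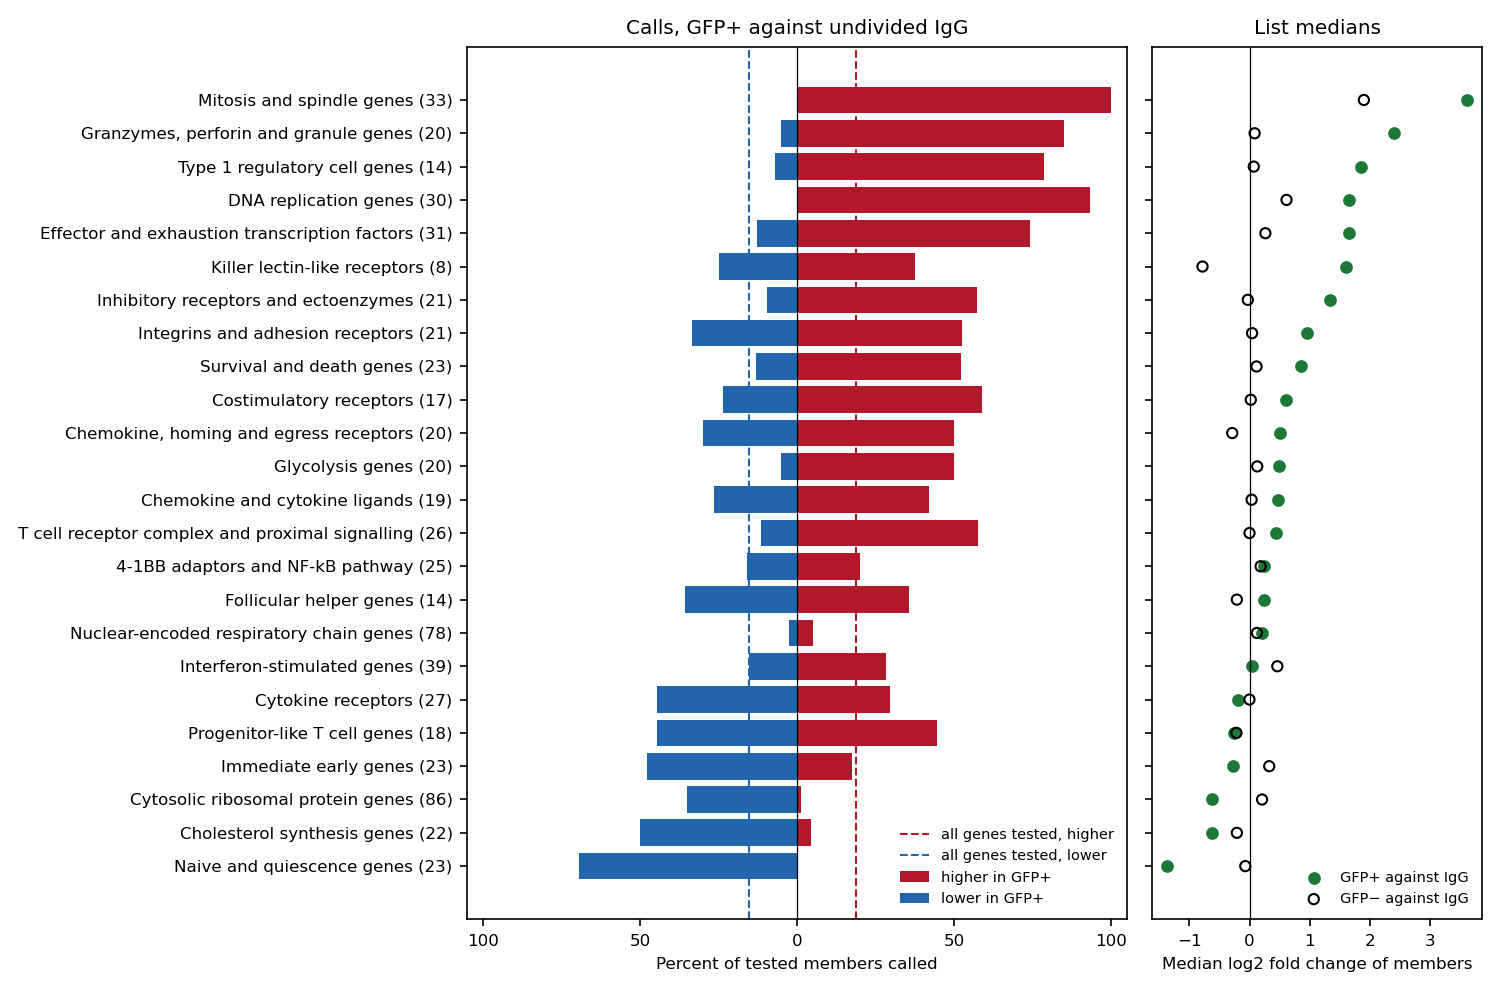
Left: for each gene list (number of tested members in brackets) the bars give the percent of members called higher (red, to the right) or lower (blue, to the left) in GFP+ than in IgG cells; dashed lines mark the 18.8% and 15.4% of all genes tested. Right: the median log2 fold change of the members in GFP+ (filled) and GFP− cells (open), both against the same IgG libraries. Mitosis and replication are the lists with the highest open circles, and the naive list has the lowest filled circle.

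After Igfbp4, the largest falls were in genes of varied function. Acvrl1, a type 1 receptor for bone morphogenetic proteins, was at 1.11, 0.916 and 1.83 CPM in GFP+ against 42.99 and 37.9 in IgG libraries (−4.92 ± 0.21, adjusted p = 6.38e-10). Ly6c1, a surface protein with a near-identical copy in Ly6c2, was at 3.88, 0.785 and 1.40 against 50.9 and 48.6 CPM, and Treml2, a receptor of the TREM family, at 10.5, 12.4 and 8.92 against 176 and 183. In GFP+ libraries Acvrl1 and Ly6c1 were at most 3.88 CPM, while Treml2 stayed at 8.92 CPM or more. In GFP− cells Acvrl1 was at 32.1, 36.3 and 38.8 and Treml2 at 159.8, 185 and 178 CPM, close to the IgG libraries. Cytoskeletal genes were among the largest falls: Cnn3, a calponin (−4.62 ± 0.21), Myo10, the myosin of filopodia (−4.30 ± 0.24), and Arhgap29, a GTPase-activating protein (−4.25 ± 0.24). The others were the transcription repressor Nacc2 (−4.88 ± 0.30), Ifngr2, Xkrx (−4.21 ± 0.27), the adhesion gene Amigo2 (−4.05 ± 0.19) and the phosphatase and coactivator Eya2 (−3.98 ± 0.31). Ramp1, a subunit of the receptor for the neuropeptide CGRP (−3.97 ± 0.25), the glutathione-cleaving enzyme Ggt5 (−3.96 ± 0.20) and the Notch coactivator Maml3 (−3.75 ± 0.28) complete the list of 15. None of the 15 was called in GFP− cells against IgG, where 0.654% of all genes tested were called higher and 0.107% lower.

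Markers of other cells were read in the same libraries. The CD4 T cell list summed to 4745 to 5248 CPM in GFP+ and 3373 to 3638 in IgG libraries, with 5 of 9 genes higher (3 without IgG replicate 1) and 1, Cd40lg, lower. Myeloid markers were higher in 5 of the 8 that passed of 11 listed, with sums of 58.2 to 96.3 CPM against 14.2 to 19.2. Lyz2, lysozyme of phagocytes, was at 5.68, 14.3 and 21.2 CPM in GFP+ and 0.509 and 0.196 in IgG libraries, and at 4.51, 12.9 and 9.57 in GFP− libraries, where it was called too. S100a8 and S100a9, of neutrophils, had no count in the IgG libraries and were highest in GFP+ replicate 3, at 0.277, 1.70 and 6.02 and 0.693, 1.05 and 10.8 CPM; the calls of both were lost without either IgG library, which left 3 higher members in the list. Csf1r was at 1.25, 4.58 and 1.61 against 0.254 and 0.489 CPM without a call (adjusted p = 0.0604), but was called with no filter on low counts (0.00205), DESeq2 (0.0293), the pair of groups alone (0.0335) and the replicate block (0.0178). Cd68 and Itgam, which activated lymphocytes also express, were the other higher members. The plasma and myeloma cell list, of interest because the mice bore a plasma cell tumour, summed to 332 to 492 CPM against 82 to 91.4 CPM, with 3 of the 5 that passed of 10 listed called higher. These 3 were Prdm1 and Irf4, which effector T cells also express, and Igkc, the immunoglobulin kappa constant region, at 76.1, 82.0 and 79.6 against 0.382 and 1.18 CPM. In the same GFP+ libraries the defining plasma cell genes Tnfrsf17, Mzb1 and Ighg2b had no count, and Sdc1 and Jchain had at most 4 counts a library. B cell markers summed to 14.5 to 23.7 CPM against 7.64 to 8.52, with Cd22 the 1 higher gene (1.39 ± 0.28). The part of these cells in the values above was not tested.

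Markers of other lymphocytes were read in the same way. Innate-like T cell markers were mostly lower in GFP+ cells, with sums of 7.31 to 25.4 CPM against 35 to 53.1 CPM and 3 lower of 4 tested (6 of the 9 listed were in the table). The tested member without a call was Trdc, the T cell receptor delta constant region. It was called higher without GFP+ replicate 3 (log2 fold change 1.089, adjusted p = 0.00501). Zbtb16, which encodes PLZF, was at 0.693, 0.131 and 1.07 against 15.1 and 32.5 CPM (−5.16 ± 0.53, adjusted p = 7.15e-06), and Klrb1c, which encodes the NK1.1 antigen, at 0.554, 0.393 and 0.537 against 6.995 and 6.66 (−3.74 ± 0.44). The NK cell list summed to 2.77 to 4.62 CPM in GFP+ and 7.05 to 7.89 in IgG libraries, and Ncr1, its defining receptor, had no count. Klrb1c, a member of this list too, made up most of the IgG sum and was the 1 lower gene. The other tested members were higher in value without a call: Tyrobp, a signalling adaptor, was at 0.277, 1.70 and 1.40 against 0.254 and 0.196 CPM (adjusted p = 0.0842, 0.0379 without GFP+ replicate 1) and Fcer1g at 0.693, 1.44 and 1.18 against 0.509 and 0 (adjusted p = 0.105, 0.0323 without IgG replicate 1). CD8 markers stayed under 10 CPM in sum in all 5 libraries, but Cd8a was called higher, at 2.36, 0.262 and 3.76 against 0.127 and 0 CPM (4.94 ± 1.33, adjusted p = 0.0118), a call lost without IgG replicate 2 (0.112) and with limma-voom (0.0563). Cd8b1 was at 1.11, 3.93 and 5.59 against 5.21 and 8.81 CPM without a call. Cd8b1 was called lower with no filter on low counts (adjusted p = 0.0153) and without GFP+ replicate 3 (0.0246). Regulatory T cell markers summed to 642 to 743 CPM against 138 to 163, but Foxp3 was at most 1.18 CPM in all 5 libraries; the rise lay in Ikzf2, at 545, 622 and 541 against 83.2 and 65.0 CPM, Ctla4, at 80.8, 100.4 and 79.3 against 23.6 and 15.8, and Lrrc32, while Il2ra, Nrp1 and Gpr83 were lower. Dendritic cell sums were 17.4 to 27.4 against 14.9 to 19.6 CPM, with Itgax, which activated T cells can also express, the 1 higher gene (9.29, 2.23 and 3.87 against 0.254 and 0.392 CPM, 3.90 ± 0.77, adjusted p = 0.00119), and red cell and platelet sums 3.12 to 5.76 against 2.29 to 3.72 CPM, with no called gene in the latter list.

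**Figure D5:**
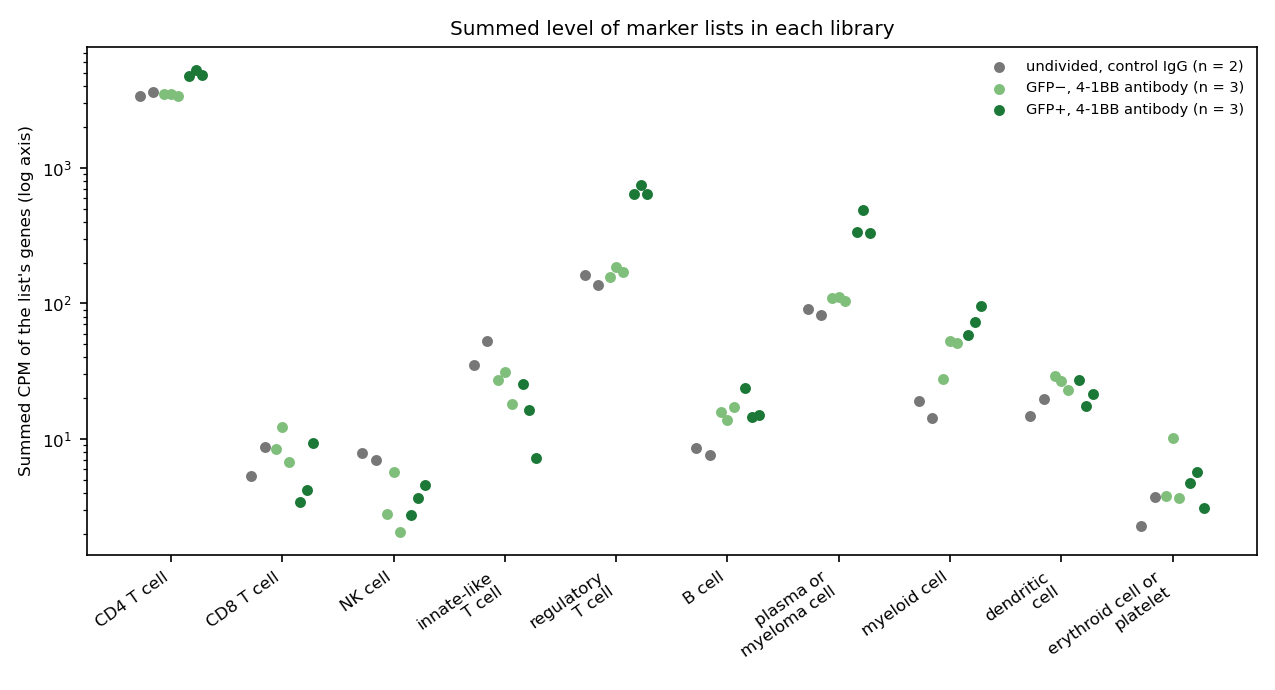
Summed CPM of each marker list (y axis, log scale) in every library; grey, light green and dark green points are the 2 IgG, 3 GFP− and 3 GFP+ libraries. The CD4 list is the highest in all 8 libraries, and the regulatory, plasma and myeloid lists are higher and the innate-like list lower in GFP+ than in IgG libraries.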

How the data were processed

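RNA of CD4+ T helper cells from mouse spleen was sequenced after ribosomal RNA depletion from 11 ng, per the labels' protocols. The values are estimated counts as deposited, in a table of 56748 genes and 47 library columns. The submitters' processing notes name the GRCm39 build and, as tools, Salmon 1.5.2, cutadapt 3.4, STAR 2.7.10a and Trim Galore 0.6.7. Column names matched 13 samples, and 34 columns were not used. Between 6.25% and 7.33% of values were not whole and were rounded.

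All 13 libraries entered 1 edgeR 4.0.16 model of 5 groups (R 4.3.3, TMM, filterByExpr, robust quasi-likelihood, 8 residual degrees of freedom), with Benjamini-Hochberg adjustment over 14059 genes and a two-sided threshold of 0.05. Fold changes are on the log2 scale, and SE was derived from each change and its F statistic (size of the change over root F). The test was tried on simulated counts. DESeq2 1.42.0, limma-voom 3.58.1, other scalings, filters, a replicate block, a fold threshold and left-out libraries were the alternatives.

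Replicate libraries differed beyond counting noise (chi-square per degree of freedom 8.89 to 29.2), so none was counted as a repeat. Where replicates were not separate animals, the p-values reflect only library spread, which may be technical, and floors of 3 counts cover counting error only. CPM is not divided by gene length, so levels are compared within genes. Genes with near-identical copies, such as Ly6c1 and Ly6c2, are uncertain. Whether close relatives such as Ccl3 and Ccl4 share reads was not tested. The counting's use of strand is not given in the sources used here. GFP+ and IgG libraries carry different prefixes, read as different animals, so the replicate number does not pair them, while GFP+ and GFP− libraries of 1 number share a prefix, with correlated deviations of 0.36, 0.11 and 0.056.

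The comparison, the 24 gene lists and the 10 marker lists were chosen with earlier results of these data known. Genes were named by a rule: up to 15 per direction with the largest fold change among called genes without overlap between the 5 libraries and a mean log2 CPM no lower than 2, without immunoglobulin and T cell receptor segments or model names. Added were Ccl3, Gzmk, Enpp6, Eomes, Tbx21, Foxp3, Tcf7, Slamf6 and Tnfrsf9, and of each list the 4 members with the smallest p and the 1 with the largest. Named beyond it, after their values were seen, were Ascl2, Bcl2, Bcl2l11, Bcl6, Bhlhe40, Btla, Ccl5, Ccna2, Ccnb1, Ccr9, Cd27, Cd4, Cdk1, Cdkn1a, Csf1r, Cx3cr1, Cxcr3, Cxcr6, Dusp10, Dusp5, Egr2, Esm1, Fos, Foxo1, Foxp1, Gata3, Glp1r, Gzma, H2-Q6, Hdac9, Ifngr1, Igtp, Il10rb, Il12rb1, Il12rb2, Il18r1, Il18rap, Il2, Il21, Il2rb, Il2rg, Il7r, Il9r, Itga1, Itga9, Itgae, Itgal, Itgb2, Itgb7, Junb, Kcnc1, Klf4, Klrk1, Lag3, Lamp1, Lef1, Lta, Ltb, Maf, Maff, Mafk, Mki67, Myb, Nkg7, Nr4a1, Nr4a3, Nt5e, Ntn1, Odc1, Ptpn6, Rbpj, Rfc4, Rgs1, Rgs2, Rrm2, Runx2, S100a8, S1pr1, Sik1, Spp1, Srebf2, Stx11, Tigit, Tk1, Tnf, Tnfrsf18, Tnfrsf4, Top2a, Traf1 and Xcl1, and list members given only by name or count. Some genes that the rule names are not reported here. Promoter windows came from the RefSeq table of GRCm38.p6, matched by symbol, and no coordinates of GRCm39 were used.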

Additional observations from a re-analysis of the deposited data

Results flagged for a closer look

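Genes were selected here for calls in opposite directions in GFP+ and in GFP− cells against the same 2 IgG libraries. A called difference between the fractions was also required, so it is part of the selection and no added result. This rule kept 12 genes. Without IgG replicate 2, 1 gene of all tested was called in GFP− against IgG cells, and without any other single library of that comparison 14 to 21 were, so most of the 12 GFP− calls were lost in the former. Some GFP+ calls against IgG were lost as well: Klf4 (adjusted p = 0.0931) and Rgs2 (0.091) without IgG replicate 1, Ntn1 (0.142) without IgG replicate 2, and Mafk (0.064 and 0.0588) and Nr4a1 (0.106 and 0.105) without either; Nr4a1 was also lost without GFP+ replicate 1 (0.0654) or 3 (0.0758).

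Of these, 8 were lower than control in GFP+ cells and higher in GFP− cells. Maff, a small Maf transcription factor, was at 1.66, 1.05 and 2.69 CPM in GFP+, 5.47 and 4.99 in IgG and 21.1, 17.1 and 18.7 in GFP− libraries (GFP+ against GFP− log2 fold change −3.36, adjusted p = 2.04e-06). The kinase Sik1 differed between the fractions by −2.07, the AP-1 subunit Junb by −1.73 and the Kruppel-like factor Klf4, at 9.84, 9.56 and 7.95 against 16.4 and 13.6 and 28.3, 34.7 and 26.8 CPM, by −1.72. Dusp10, a phosphatase of stress kinases, was at 72.6, 80.1 and 65.3 CPM in GFP+, 134 and 131 in IgG and 246, 181 and 189 in GFP− libraries (−1.496 between fractions). Rgs2, a brake on G protein signals (−1.33), Nr4a1 (−1.21) and Mafk (−1.15) followed the same order.

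The other 4 were higher than control in GFP+ and lower in GFP− cells. Eomes (8.01) did so by the sort on its reporter. Kcnc1, a voltage-gated potassium channel, was at 15.4, 16.6 and 14.8 CPM in GFP+, 3.43 and 4.70 in IgG and 0.366, 0.244 and 0.271 in GFP− libraries (5.67, adjusted p = 1.05e-08). Ntn1, the guidance cue netrin 1, was at 9.15, 10.7 and 11.2, 5.09 and 3.43 and 0.610, 1.46 and 1.08 CPM in the same order (3.28). Myb was at 200.5, 155 and 216, 69.7 and 76.1 and 38.5, 32.5 and 31.1 CPM (2.49). For each of these 4 genes the undivided control cells lay between the fractions, which follows from the selection on opposite directions.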

How the results depend on the processing

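The 2642 higher and 2167 lower genes became 1305 and 909 against a fold threshold of 1.5, and ranged from 1665 to 2405 and from 1501 to 2114 when 1 library was left out; without an IgG library the lone one is assumed to vary like the other groups. The block on replicate number gave 2726 and 2256, with same-numbered GFP+ and IgG deviations correlated at −0.072 and −0.2, so these libraries share only a number. The 107 genes of GFP− against IgG cells became 521 with no low-count filter, 297 with DESeq2, 41 with limma-voom, 393 with the groups alone, 266 with the block, 3 at the fold threshold and 1 to 21 with 1 library left out. The 5220 genes of GFP+ against GFP− cells became 2146 at the fold threshold and 4188 to 4612 with 1 library left out, and 5401 with the block. The cause of these moves was not tested. Of 237 called among 294 genes examined singly, 171 kept their call in every alternative and none reversed; 174 of 4388 pairs of gene and setting lost a call and 24 gained one. Depth limits the lowest genes: no count in a group allows up to 0.124 CPM in GFP+ and 0.166 CPM in IgG cells.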

Other observations

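T cell receptor beta gene usage was not part of the comparison. Variable (Trbv) segments took 1579 to 2463 counts in the GFP+ and 1739 to 2285 in the IgG libraries, and 22 to 24 and 23 to 24 segments had a count. The most used segment held 13.4%, 13.7% and 15.4% of these counts in the GFP+ libraries and 11.3% and 11.9% in the IgG libraries; it was Trbv3 in 4 of these 5 libraries and Trbv13-2 in GFP+ replicate 1. The effective number of segments, the inverse of the summed squared shares, was 12.5, 12.5 and 13.1 in GFP+ and 15.2 and 15.4 in IgG libraries, which do not overlap. GFP− libraries held 14.5, 15.2 and 14.6. No test was run on these values.

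Other genes outside the lists showed a further pattern between the 3 groups. Hdac9, a class II histone deacetylase, was at 2.22, 3.80 and 3.65 CPM in GFP+, 3.43 and 2.64 in IgG and 0, 0.365 and 0.361 in GFP− libraries, and Itga9, an integrin chain, at 4.16, 3.93 and 7.74, 7.88 and 5.78 and 1.59, 1.58 and 1.90 CPM. Both were lower in GFP− than in IgG cells (−3.52 ± 0.63 and −1.99 ± 0.34; adjusted p = 0.0255 and 0.0225) and not called in GFP+ cells (0.09 ± 0.51 and −0.36 ± 0.32). H2-Q6, a nonclassical class I gene with near-identical copies, was higher in both fractions, at 686, 708 and 724 CPM in GFP+, 361, 335 and 273 in GFP− and 234 and 190.4 in IgG libraries. These 3 genes were chosen after their values were seen.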
